A study of Mus musculus with 6 samples.

Results

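The GIMAP genes (GTPases of immunity-associated proteins) encode a family of small GTP-binding proteins made mostly in lymphocytes. The 8 genes described here, Gimap1, Gimap3, Gimap4, Gimap5, Gimap6, Gimap7, Gimap8 and Gimap9, were taken by symbol and matched to their NCBI gene numbers, 8 of the 16749 genes listed in at least 1 library. All 8 were listed in every library and all 8 passed the filter on low values. The RNA came from CD8+ T cells sorted out of the iLN, as the labels abbreviate the tissue, of C57BL/6 mice with tumors after treatment with oxaliplatin, a platinum-based chemotherapy. Both groups carried the floxed allele: 3 libraries came from Id2f/f mice, called WT, and 3 from Cd4creId2f/f mice, called knockout. Id2 encodes an inhibitor that binds E protein transcription factors and keeps them off DNA, and Cd4-Cre acts in developing T cells, so CD4 lineage cells lose the gene too. Cre was present in the knockout group alone, so what Cre itself does and what loss of Id2 does cannot be told apart. Since no label ties a sample to an animal, the p-values refer to the variation among these 6 libraries, part or all of which may be technical.

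GIMAP proteins carry a GTPase domain and, in several members, an anchor in a membrane of the endoplasmic reticulum, lysosome or lipid droplet. They are known for keeping resting T cells alive: loss of GIMAP5 in the BB rat and in mice leaves few peripheral T cells, and loss of GIMAP1 depletes mature T and B cells. GIMAP6 binds the ATG8 protein GABARAPL2 and takes part in autophagy, GIMAP4 has been tied to T cell death, and GIMAP3 and GIMAP5 have been reported to bind BCL2 family proteins. Most of these roles come from knockouts of single members, and what Gimap9 does is less well described.

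The 8 genes lie side by side in a cluster of 124 kb on mouse chromosome 6, at chr6:48647186-48770851 of the RefSeq GRCm38.p6 table, the assembly known as mm10. No other protein-coding gene of that table lies inside it. In order along the chromosome they are Gimap8 (chr6:48647186-48660875), Gimap9 (chr6:48676121-48679116), Gimap4 (chr6:48684578-48692062), Gimap6 (chr6:48701583-48708244), Gimap7 (chr6:48718621-48724636), Gimap1 (chr6:48739047-48743795), Gimap5 (chr6:48746197-48754200) and Gimap3 (chr6:48764464-48770851). Gimap6 and Gimap3 are on the minus strand and the other 6 on the plus strand.

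Each coding sequence holds a P-loop, the glycine-rich turn that grips the phosphates of GTP, and Gimap8 holds 3 of them. The 24 coding bases of the P-loop (of Gimap8, the first) are shown because they mark the pair of members that are nearly copies of each other. They come from GENCODE M21 transcripts and are written 5′ to 3′, and capitals mark bases that are the same as in Gimap5.
Gimap5: GGCAAATCTGGCTGCGGTAAAAGC
Gimap3: GGCAAATCTGGCTGCGGTAAAAGC
Gimap6: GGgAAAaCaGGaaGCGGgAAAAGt
Gimap7: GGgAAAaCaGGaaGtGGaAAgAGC
Gimap1: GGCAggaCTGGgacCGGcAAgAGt
Gimap4: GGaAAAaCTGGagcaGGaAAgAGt
Gimap8: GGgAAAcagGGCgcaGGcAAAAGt
Gimap9: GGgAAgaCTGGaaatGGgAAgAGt
Gimap3 and Gimap5 do not differ in this stretch, while the other members shown differ from Gimap5 at 7 to 10 of the 24 bases. Over whole coding sequences Gimap3 and Gimap5 were 87.8% identical, and the other 27 of the 28 pairs were between 52.9% and 65.1% identical in aligned bases.

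The longest run of bases that the Gimap3 and Gimap5 transcripts have in common is 140 bases long and is coding in both. It lies in exon 5 of 5 of Gimap3 (chr6:48765681-48765820, minus strand) and in exon 3 of 3 of Gimap5 (chr6:48752684-48752823, plus strand). It is shown because a short read that falls inside it cannot be given to either gene.
Gimap3 and Gimap5: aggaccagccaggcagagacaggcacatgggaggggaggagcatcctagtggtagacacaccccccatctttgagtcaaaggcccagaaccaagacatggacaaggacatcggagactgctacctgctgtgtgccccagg
Of the 28 pairs this was the single pair of transcripts with any window of 50 bases in common. The longest run in any other pair had 17 bases. Such windows made up 9.06% of those in Gimap3 and 9.98% of those in Gimap5.

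The expected counts, in which RSEM divides reads that match several genes, showed the same pair. Gimap3 and Gimap5 held fractions of a read in 6 of 6 libraries, yet their sum was a whole number (within 0.005) in each: 6088, 6217 and 5832 in WT and 6439, 6436 and 6315 in knockout. Among the 4598 genes with fractional counts, Gimap5 was the only one that gave whole sums with Gimap3 in all libraries. Gimap1 was also fractional in 6 libraries, Gimap6 in 1, and Gimap4, Gimap7, Gimap8 and Gimap9 in 0. In GENCODE M21 the antisense gene Gimap1os overlaps 1107 exonic bases of Gimap1, and the overlapping gene model Gm28053 takes exons of Gimap7, Gimap1 and Gimap5. The use of strand in counting was not stated in the labels or processing notes. Reads in the exonic bases that Gimap1 and Gimap1os share therefore cannot be told apart here. The source of the fractions of Gimap1 was not tested.

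The libraries held between 7699181 and 8495123 expected counts. Id2 stood at 370.98, 146.76 and 149.01 FPKM (fragments per unit of transcript length and of library depth) in WT and 1.67, 2.64 and 2.12 in knockout, low in all 3 libraries labelled knockout. The CD8 chain gene Cd8a stood at 212 ± 10.9 and 214 ± 17.8 FPKM (SD, n = 3), and all 8 fixed T cell markers were listed, with a summed level of 3132 to 3624 FPKM in WT and 3009.8 to 4023 in knockout. Transcripts of B cells were present and uneven, with Cd74 the most abundant (1459.7 ± 817 FPKM in WT and 809 ± 751 in knockout): the 10 listed of 12 B cell markers summed to 644, 2105 and 2481 FPKM in WT replicates 1 to 3 and 485, 2003 and 436 in knockout replicates 1 to 3. Other marker sums were lower: NK cell 12.6 to 34.5 in WT and 13.3 to 15.9 in knockout, myeloid 25 to 43.2 and 30.5 to 35.3, stromal 2.25 to 5.5 and 0.58 to 1.15, and dendritic 23.6 to 26.6 and 3.97 to 6.82. Of the 4 dendritic markers tested, 3 passed as lower in knockout and 0 as higher (edgeR), beside 8.77% and 3.14% of all tested genes. Batf3 (means of 9.84 and 0.31) and Itgax (8.02 and 0.55) were among the lower ones, and Xcr1 (2.97 and 2.81) overlapped. CD4 and regulatory T cell markers summed to 75.9 to 100.1 and 95.1 to 101, with Ctla4 higher (means of 58.2 and 82.3) and Il2ra lower (17 and 4.24) in knockout. Gamma delta T cell markers summed to 12.5 to 22.8 and 46.7 to 72.2. Of these, 5830411N06Rik (5 and 35.9) and Cd163l1 (7.79 and 16.1) were higher, and Blk (4.4 and 2.72) overlapped. Trdc was not listed, nor were Ighm and Ighd of the B cell list. A sum therefore need not follow the number of cells. Of the 11 endothelial and platelet markers 6 were not listed, Cdh5 among those listed was at 0 in knockout, and Pecam1, which T cells also make, gave most of the sum of 35.3 to 43.3 and 43.4 to 47. Their part in the GIMAP values was not tested, apart from a fit with the B cell sum as a covariate.

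GIMAP transcripts were abundant in both genotypes and spanned a wide range of levels within the family. Gimap6 was the highest member, rank 64 of 16749 genes by mean FPKM, and Gimap8 the lowest, rank 3375. Gimap3 and Gimap4 ranked 260 and 261, Gimap9 514, Gimap1 673, Gimap5 1647 and Gimap7 1891. In WT the mean levels were 913 FPKM for Gimap6, 290.2 for Gimap4, 287 for Gimap3, 149 for Gimap9, 126 for Gimap1, 52.8 for Gimap5, 50 for Gimap7 and 22.4 for Gimap8. In that order, the WT ranges of Gimap4 and Gimap3, of Gimap9 and Gimap1, and of Gimap5 and Gimap7 overlapped, while the other neighbours did not. In knockout the order was the same but for Gimap3 (328) and Gimap4 (325), whose ranges again overlapped and were the only neighbours that did. The division of reads between Gimap3 and Gimap5 makes the place of each less certain than that of their sum.

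**Figure D1:**
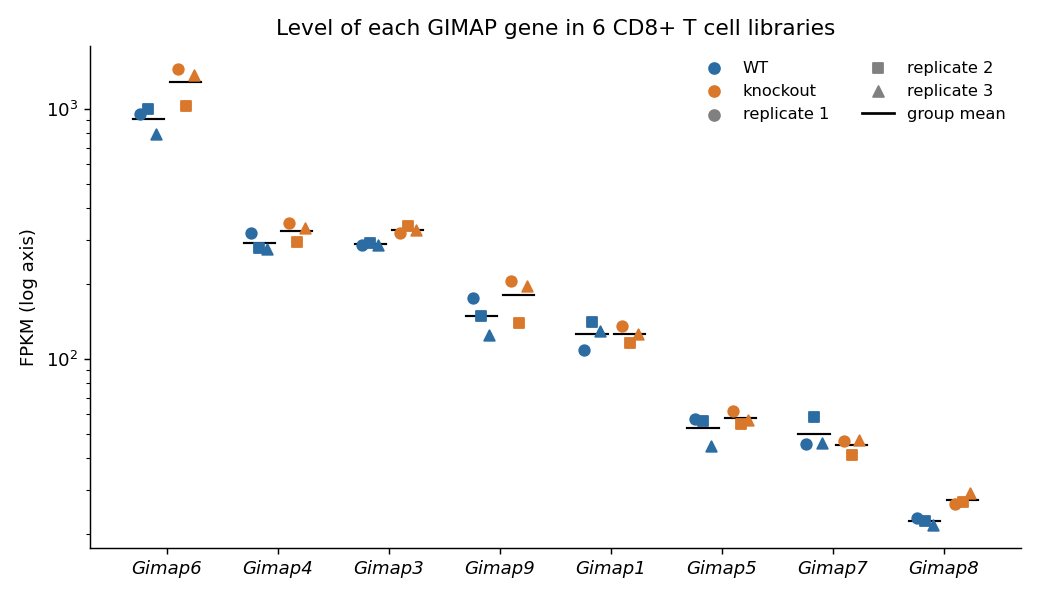
FPKM (log axis) of the 8 GIMAP genes, with 1 point per library (blue WT, orange knockout, symbol by replicate number) and a bar at the mean of 3 libraries. Gimap6 lies at 791.7 FPKM or more in every library and Gimap8 at 28.96 or less, and the orange points lie wholly above the blue ones for Gimap6, Gimap3 and Gimap8.

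The comparison of the genotypes asks whether this family differs between CD8+ T cells with and without Id2. No GIMAP gene passed the threshold in either direction (adjusted p of 0.05, edgeR's quasi-likelihood test with Benjamini-Hochberg adjustment over 10890 genes). In the same fit 11.9% of all tested genes passed, 3.14% higher and 8.77% lower in knockout. At an unadjusted p under 0.05 there were 2 members, Gimap6 and Gimap8, against 27.6% of all genes. By DESeq2 1 member passed, Gimap6, where 14.4% of all genes did, and by limma on log2(FPKM + 1) 0 members passed, where 10.6% did. The members' log2 fold changes lay between -0.16 and 0.48 with a median of 0.17, beside 0.01 over all genes, and 6 of 8 were above 0, as were 51.9% of all genes. Less RNA per cell and fewer cells that make it cannot be told apart in bulk samples.

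Within the variation among these 6 libraries, the fit limited how large a difference could be. With all 6 libraries in edgeR, the 95% intervals of all 8 log2 fold changes lay within -0.44 and 0.83, that is between 0.737-fold and 1.77-fold. With 1 library left out they reached -0.54 (Gimap7 without WT replicate 3) and 0.94 (Gimap6 without WT replicate 1 or 2). An interval within -1 and 1, a doubling or halving at most, was found for 8 of 8 members and for 78.7% of all tested genes. Standard errors were between 0.0894 and 0.183, with a median of 0.124 beside 0.159 over all genes. The lowest count of any member in any library was 406 (Gimap7), where counting alone gives an SD of 4.96%. At the highest, 18579 (Gimap6), it gives 0.734%. Replicate SDs ran from 0.727% (Gimap3 in WT) to 20% (Gimap9 in knockout) of a member's group mean. The spread of Gimap3 in WT was thus smaller than counting alone gives even at the highest count.

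**Figure D2:**
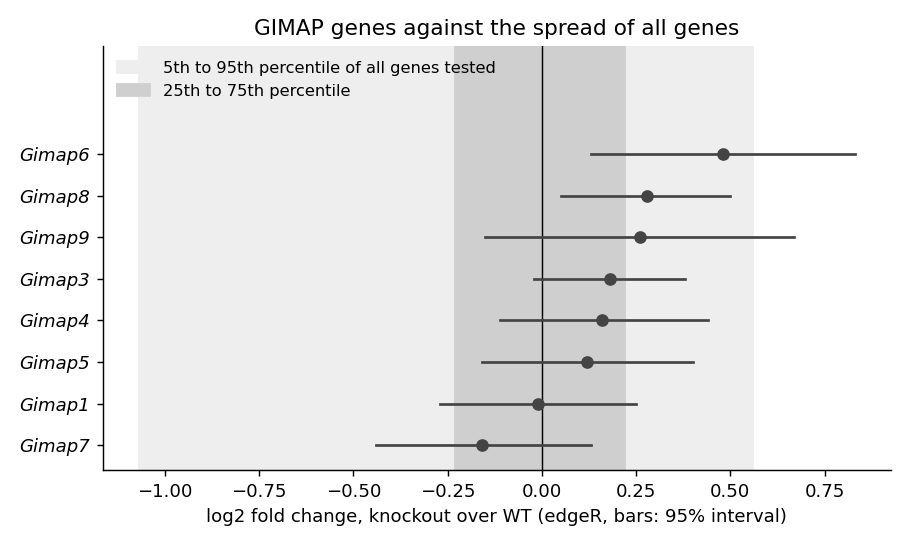
The log2 fold change of each GIMAP gene, knockout over WT, with its 95% interval from edgeR (3 libraries a group), over the central ranges of all 10890 tested genes. The points run from -0.16 for Gimap7 to 0.48 for Gimap6, and all lie within the range from the 5th (-1.07) to the 95th percentile (0.56) of all genes.

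Gimap6, whose protein works with the autophagy factor GABARAPL2, had the largest difference of the 8 genes. It was measured at 951.39, 994.61 and 791.7 FPKM in WT and 1446.82, 1024.63 and 1367.48 in knockout. All 3 knockout libraries lay above all 3 WT libraries, but knockout replicate 2 exceeded WT replicate 2 by little. The log2 fold change was 0.48 (SE 0.156, 95% interval 0.13 to 0.83, adjusted p = 0.0794, edgeR), a 1.39-fold higher level that did not pass. The call turned on the tool and on 1 library: the adjusted p was 0.0143 by DESeq2 and 0.0354 by edgeR with no filter on low values, where 9.29% of all genes passed. Without knockout replicate 2 the log2 fold change was 0.63 (adjusted p = 0.00851, edgeR), in a fit where 14.3% of all genes passed. Over all 15 alternatives its log2 fold change was between 0.27 and 0.63 and the adjusted p between 0.00851 and 0.242. Of all tested genes, 20.3% had a larger log2 fold change in either direction.

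**Figure D3:**
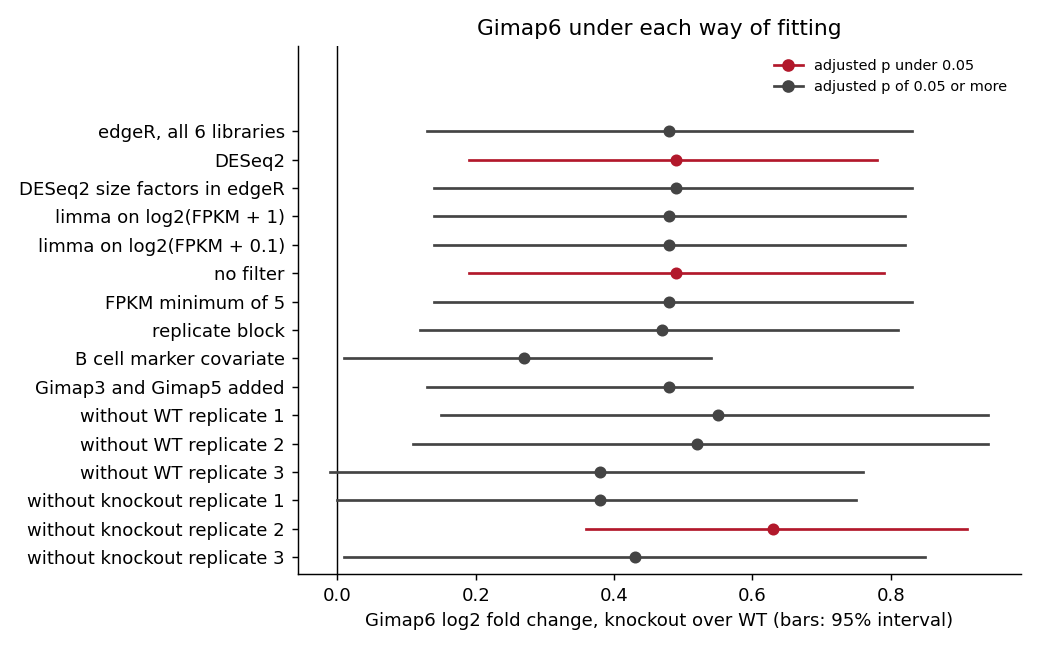
The log2 fold change of Gimap6, knockout over WT, with its 95% interval for all 6 libraries and for each of 15 alternatives, red where the adjusted p was under 0.05. All points lie above 0, between 0.27 with the B cell marker covariate and 0.63 without knockout replicate 2, and 3 of the alternatives are red.

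Gimap8, the member with 3 P-loops in 1 coding sequence, was low and even among replicates. It stood at 23.02, 22.38 and 21.67 FPKM in WT and 26.25, 26.79 and 28.96 in knockout. The groups did not overlap, and the gap between them was wider than the range of the WT libraries. Knockout over WT gave a log2 fold change of 0.28 (SE 0.0993, 95% interval 0.05 to 0.5), and it did not pass (adjusted p = 0.104, edgeR). It stayed between 0.21 and 0.34 under all 15 alternatives, with adjusted p-values between 0.0821 and 0.308.

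Gimap3, a gene that is intact in mice and a pseudogene in humans, was the steadiest member in WT, with a spread smaller than counting alone gives. Its levels were 285.58, 289.3 and 285.81 FPKM in WT and 318.6, 339 and 327.2 in knockout. The groups did not overlap, so that 3 of 8 members (Gimap6, Gimap8 and Gimap3) were higher in every knockout library than in any WT library, beside 15.3% of all tested genes, and 0 were lower, beside 16.8% (32.1% in either direction). For Gimap3 the log2 fold change was 0.18 (SE 0.0894, 95% interval -0.02 to 0.38, adjusted p = 0.227, edgeR).

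Gimap5, the member whose loss causes lymphopenia in rats and mice, stood at 57.41, 56.17 and 44.85 FPKM in WT and 62.05, 55.03 and 57.04 in knockout. The groups overlapped, and WT replicate 3 was the lowest library. Its log2 fold change was 0.12 (SE 0.126, 95% interval -0.16 to 0.4, adjusted p = 0.579, edgeR), and it was 0.01 without WT replicate 3 and 0.23 without WT replicate 1. Since reads inside the 140-base run printed above fall to either gene, the counts of Gimap3 and Gimap5 were also added before the fit, which gave a log2 fold change of 0.17 (adjusted p = 0.258). In WT the ratio of Gimap3 to Gimap5 came to 4.97, 5.15 and 6.37, and in knockout to 5.13, 6.16 and 5.74, so it overlapped.

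Gimap4, expressed in mature T cells and tied to their death program, had 317.75, 277.99 and 274.73 FPKM in WT and 348.67, 293.91 and 332.38 in knockout. The groups overlapped, and the log2 fold change was 0.16 (95% interval -0.11 to 0.44, adjusted p = 0.431, edgeR), with 0.27 when WT replicate 1 was left out and 0.25 when knockout replicate 2 was. Gimap9 had 174.46, 147.91 and 124.59 FPKM in WT and 204.46, 138.46 and 195.99 in knockout. Its groups also overlapped, with the widest relative spread of the family (16.7% of the mean in WT and 20% in knockout), and its log2 fold change was 0.26 (95% interval -0.15 to 0.67, adjusted p = 0.409). Leaving out WT replicate 3 gave 0.13, knockout replicate 1 gave 0.15, and WT replicate 1 or knockout replicate 2 gave 0.43.

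Gimap1, needed for the survival of mature lymphocytes, was at the same mean level in both genotypes. It stood at 108.66, 139.85 and 129.31 FPKM in WT and 135.83, 116.17 and 125.81 in knockout, 126 ± 15.9 and 126 ± 9.83 (SD, n = 3). Its log2 fold change of -0.01 had a 95% interval of -0.27 to 0.25 (adjusted p = 0.97, edgeR), that is from 0.832-fold to 1.19-fold. Gimap7, a GTPase that hydrolyses GTP as a dimer, was the other member below 0. Its levels were 45.63, 58.28 and 45.97 FPKM in WT and 46.92, 41.28 and 47.35 in knockout, with WT replicate 2 alone above the rest. Its log2 fold change was -0.16 (95% interval -0.44 to 0.13, adjusted p = 0.477), and leaving out WT replicate 2 gave -0.05, knockout replicate 2 -0.07.

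Levels of Gimap4, Gimap9 and Gimap5 were split by the B cell marker sum of a library, and those of the other 5 were not. That is 3 of 8 members, each higher where the sum was low. Of all tested genes 4.3% were higher in the same way, and 14.3% parted in either direction. The low side held more knockout than WT libraries, so this split is partly mixed with genotype. The 3 libraries with the lowest B cell marker sums, WT replicate 1 and knockout replicates 1 and 3, held between 317.75 and 348.67 FPKM of Gimap4, and the 3 with the highest held between 274.73 and 293.91. The same 3 and 3 libraries did not overlap for Gimap9 (174.46 to 204.46 against 124.59 to 147.91) or Gimap5 (57.04 to 62.05 against 44.85 to 56.17). For Gimap5 this rested on a narrow gap, between knockout replicate 3 (57.04) and WT replicate 2 (56.17), and its reads are divided with Gimap3. For Gimap6, Gimap3, Gimap8, Gimap1 and Gimap7 they overlapped. The overlap of Gimap6 rested on WT replicate 1 (951.39 FPKM), which lay below WT replicate 2 (994.61) and knockout replicate 2 (1024.63). Its log2 fold change of 0.48 also moved with the covariate, as given below. The 3 low libraries also had the 3 highest sums of the T cell markers, 3624, 4023 and 3815 FPKM, against 3183, 3132 and 3009.8. Single markers differed in this. Lck (818.5 to 1004.88 against 641.39 to 746.8) and Cd3g (720.9 to 859.36 against 588.69 to 683.32) did not overlap. Cd8b1 (685.68 to 794.12 against 547.91 to 690.04), Cd3e (329.44 to 374.61 against 279.2 to 338.95) and Cd8a (214.16 to 231.77 against 196.14 to 214.69) did. With the B cell marker sum as a covariate in edgeR, the log2 fold change was 0.27 for Gimap6 (adjusted p = 0.182), 0.21 for Gimap8 (0.239), 0.16 for Gimap3 (0.314), 0.03 for Gimap4 (0.902), 0.01 for Gimap5 (0.968), -0.02 for Gimap9 (0.943) and Gimap1 (0.943) and -0.21 for Gimap7 (0.403). The median over the 8 members was then 0.02. No member passed in that fit, where 11.1% of all genes did.

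**Figure D4:**
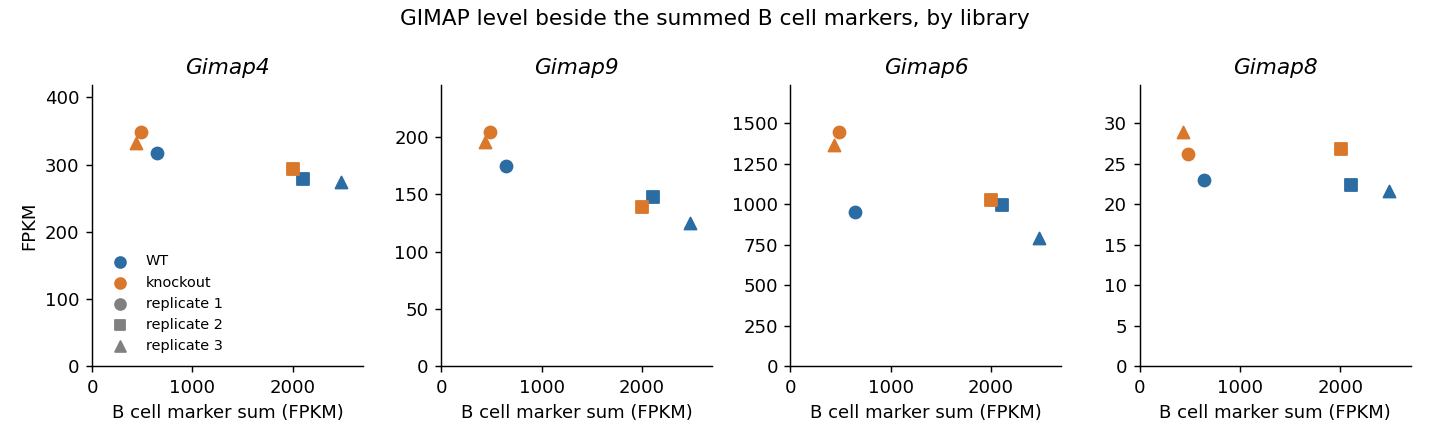
FPKM of Gimap4, Gimap9, Gimap6 and Gimap8 (vertical axes from 0) against the B cell marker sum (FPKM), 1 point per library, blue for WT and orange for knockout. Gimap4 and Gimap9 are higher in all 3 libraries with a marker sum of 436 to 644 than in all 3 with a sum of 2003 to 2481, while Gimap8 is higher in the orange points on both sides.

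As a whole the family took between 0.296% and 0.338% of all counts in WT and between 0.352% and 0.438% in knockout. The summed levels were 1964, 1986 and 1719 FPKM in WT and 2589.6, 2035 and 2482 in knockout, without overlap, and knockout replicate 2 was the library nearest to WT. Gimap6 made up the largest share of the sum, in WT 48.4%, 50.1% and 46.1%, and in knockout 55.9%, 50.3% and 55.1%. Its own levels did not overlap between the groups, so the gap between the sums is not a result apart from Gimap6. Gimap7 made up 2.32% to 2.93% of the sum in WT and 1.81% to 2.03% in knockout, again without overlap. A share falls when another member of the sum is higher, and the FPKM of Gimap7 itself overlapped (45.63 to 58.28 and 41.28 to 47.35). The shares of the other 6 members overlapped between the groups, such as Gimap3 with 15.2% ± 1.18 and 14.1% ± 2.32 and Gimap4 with 15.4% ± 1.22 and 13.8% ± 0.551 (SD, n = 3). No test was run on sums or shares.

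Profiles over the 6 libraries were compared by the root mean square difference of log2(FPKM + 1), each gene centred on its own mean. Gimap3 and Gimap8 were nearest to each other (0.0676), as were Gimap4 and Gimap5 (0.0951), Gimap1 and Gimap7 (0.11) and Gimap6 and Gimap9 (0.143), so the 8 genes fell into 4 mutual pairs. Gimap6 (0.181) and Gimap7 (0.179) lay farthest from the mean profile of the family. Outside the family, among 5913 genes with a mean of at least 10 FPKM, Fam172a (0.019), Fbxl5 (0.0252), Lonp2 (0.0284), Ankfy1 (0.0327) and Pcmtd1 (0.0348) were nearest to that mean profile. None of these 5 passed the threshold (adjusted p between 0.318 and 0.559, edgeR). These distances are a description over 6 libraries.

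The genes beside the cluster were much lower and none passed, with all 6 log2 fold changes below 0, as were 48.1% of all genes. Without WT replicate 1 the log2 fold changes of Lrrc61 (0.18) and Rarres2 (0.05) were above 0, and so was that of Lrrc61 without knockout replicate 2 (0.13). Of the 5 protein-coding genes on each side, 6 of 10 were listed, and their highest value in any library was 8.19 FPKM, below the lowest GIMAP value of 21.67. On the Gimap8 side, Lrrc61, Rarres2, Repin1 and Zfp775 had log2 fold changes of -0.03, -0.25, -0.9 and -0.18. Tmem176b and Tmem176a, membrane protein genes that lie 63 kb and 70.6 kb beyond Gimap3, stood at -0.69 and -0.83. By edgeR 0 of the 6 passed (the lowest adjusted p was 0.169, for Repin1), 1 had an unadjusted p under 0.05, and 0 passed by DESeq2 or limma. The counts behind them were small, down to 7 for Tmem176a in knockout replicate 3.

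**Figure D5:**
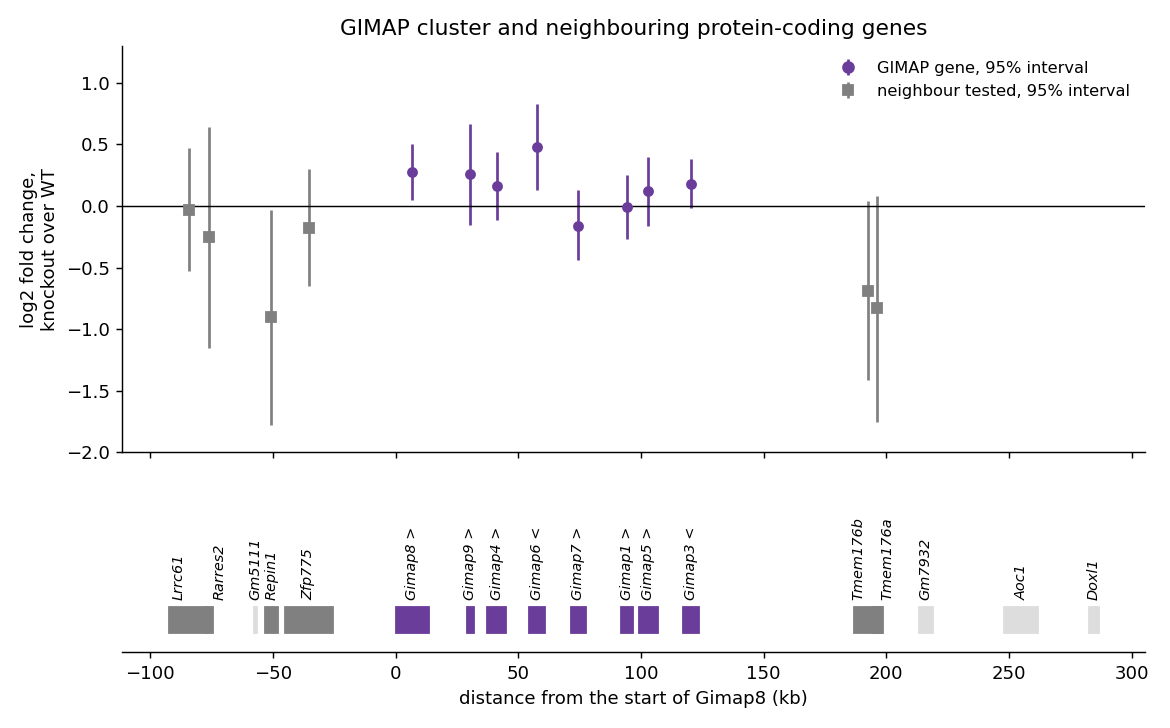
The log2 fold change of the GIMAP genes (purple) and of the tested neighbours (grey), with 95% intervals, by distance from the start of Gimap8 in kb, above a map of the genes with the strand of each GIMAP gene as > or <. The GIMAP points lie between -0.16 and 0.48, and the 6 neighbours between -0.9 and -0.03 with wider intervals.

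E proteins, which Id2 holds back, bind the E-box, written CANNTG, a motif that reads the same on both strands. The RefSeq windows of 250 bases before a gene's start were searched (GRCm38.p6). Of the 9 GIMAP windows (Gimap8 has 2 starts), 7 held at least 1 CANNTG, as did 66.2% of all 32851 windows. The 2 windows of Gimap8 overlap and hold the same CACATG, so they are not separate. The form CAGCTG was in 0 of the 9 and in 13% of all windows. The form CACCTG, searched on both strands, was in 1, that of Gimap9, and in 17.2% of all. The window of Gimap6, the member with the largest difference, is shown with its single CANNTG in capitals (chr6:48708245-48708494, minus strand).
Gimap6 upstream: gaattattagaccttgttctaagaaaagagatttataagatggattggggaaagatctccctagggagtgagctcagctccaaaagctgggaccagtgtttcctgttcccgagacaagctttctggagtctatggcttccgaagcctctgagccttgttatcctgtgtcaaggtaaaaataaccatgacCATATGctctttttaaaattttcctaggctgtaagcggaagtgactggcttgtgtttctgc
The windows of Gimap1 and Gimap3 held 0, and those of Gimap8, Gimap4, Gimap7 and Gimap5 held 2 each. A match of letters in such a window is not a measurement of binding.

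Genes of 4 processes that GIMAP proteins have been tied to were read from lists. Of 12 tested BCL2 family genes 1 was higher (Bcl2) and 3 lower (Bcl2l1, Bcl2a1b and Bcl2a1d), with a median log2 fold change of -0.15. Bcl2, the survival factor of resting T cells, rose from 37.9 ± 6.88 to 58.1 ± 5.76 FPKM, and Bcl2a1d fell from 60.5 ± 9.39 to 22.4 ± 3.72. Of 19 genes of ATG8 proteins and autophagy 1 was lower, Gabarapl1 (20.6 ± 1.62 to 10.3 ± 2.22 FPKM), and the median was 0. Gabarapl1 is a close relative of the GIMAP6 partner gene Gabarapl2, which was tested in the same list and did not pass. Of 14 genes of GSK3 and mTORC1, the first of which has been tied to GIMAP5, Rptor was higher and Ctnnb1 lower, with a median of 0.01. Of 20 genes of naive T cell survival and homing 5 were higher (Bach2, Nsg2, Klf3, Tcf7 and Foxp1) and 0 lower, with a median of 0.33, and Tcf7 rose from 175 ± 20.5 to 276 ± 56.5 FPKM. These counts stand beside the 3.14% higher and 8.77% lower of all genes.

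The calls of Bcl2a1b, Bcl2a1d, Gabarapl1, Bach2 and Nsg2 held when any 1 library was left out, and those of the other 7 did not (edgeR). Those of Bcl2a1b and Bcl2a1d need not be separate, as given above. With libraries named by group and replicate, Rptor lost its call without any 1 of the 6 (adjusted p between 0.073 and 0.105). Bcl2 lost it with WT 1, WT 3 or any 1 knockout library left out (0.0676, 0.0631, 0.0544, 0.0563 and 0.0608). Bcl2l1 lost it with WT 1, WT 3, knockout 2 or knockout 3 left out (0.127, 0.169, 0.0927 and 0.197), and Ctnnb1 with WT 2, WT 3, knockout 1 or knockout 3 left out (0.111, 0.151, 0.0952 and 0.188). Klf3 lost it with WT 1, WT 3, knockout 1 or knockout 3 left out (0.0668, 0.112, 0.0825 and 0.0587), Tcf7 with WT 2, WT 3, knockout 1 or knockout 3 left out (0.0896, 0.146, 0.114 and 0.152), and Foxp1 with any 1 WT library, knockout 2 or knockout 3 left out (0.0636, 0.0706, 0.134, 0.0627 and 0.158). With all 6 libraries, limma on log2(FPKM + 1) did not call Bcl2l1 (adjusted p = 0.0572), Ctnnb1 (0.0976), Rptor (0.111) or Foxp1 (0.0555). The B cell covariate in edgeR ended the calls of Ctnnb1 (0.0933), Rptor (0.0535), Klf3 (0.0591) and Tcf7 (0.0558). Rptor was not called with no filter on low values either (0.0579), nor Bcl2l1 with DESeq2's size factors in edgeR (0.053).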

How the data were processed

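The authors deposited, for each of 6 libraries (3 WT, 3 knockout), a table of expected counts per gene, the FPKM value and the transcript length, per the file headers. Tools named without a version, per the submitters' processing notes, were CASAVA, Bowtie2 and RSEM, with the build mm10. A gene missing from a table was taken as 0. Between 25% and 26.18% of the expected counts of a library were not whole. The libraries' values were joined on NCBI gene numbers, of which 16707 among 16749 were matched to a symbol through RefSeq (GRCm38.p6).

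Expected counts were rounded, scaled by TMM and tested two-sided with edgeR 4.0.16 (R 4.3.3) on 10890 genes with at least 1 FPKM in at least 3 libraries. The biological coefficient of variation was 0.156. A standard error is the absolute log2 fold change divided by the square root of F. Alternatives used DESeq2 1.42.0, limma 3.58.1 on log2(FPKM + 1) or log2(FPKM + 0.1), other filters and scaling, a replicate block, a B cell covariate, Gimap3 and Gimap5 added, and each library left out. The fits were tested on simulated data. No 2 libraries of a group were duplicates (chi-square per degree of freedom of 5.42 to 17.47). Coding sequences were aligned with Biopython 1.88 (match 1, mismatch -1, gap opening -5, extension -0.5).

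The members and gene lists were chosen with earlier results of these data known. Named were the 8 members, Id2, up to 4 genes of each of 4 lists by smallest p, the 3 most abundant markers of each list, the 5 genes on each side of the cluster and the 5 nearest profiles. Not all of these are printed, and Foxp1, Cd8a and Cd3e, which the rule does not cover, were added with their values known.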

Additional observations from a re-analysis of the deposited data

How the results depend on the processing

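Leaving out 1 library at a time gave 0 to 1 GIMAP members higher, and 0 lower in each such fit. By DESeq2 and with no filter 1 was higher, in each case Gimap6, whose log2 fold change was 0.49 in both and 0.38 to 0.63 with 1 library left out. Gimap1 changed sign without passing: 0 by limma with either pseudocount and with no filter, and -0.07 to 0.07 with 1 library left out. Gimap9 was at -0.02 with the B cell covariate. Other members kept their sign in every fit, though Gimap4, Gimap5, Gimap7 and Gimap9 moved by more than 1.5 times with 1 library left out. The replicate number as a block called 0 members (Gimap6 0.47, adjusted p = 0.0903, edgeR) and 1183 of all genes in place of 1297. In the labels same-numbered libraries share only a number, and whether they were handled together was not stated. Their deviations correlated at 0.118, 0.075 and -0.03, which cannot decide this. Of the WT libraries replicate 2 correlated best with its own number while replicates 1 and 3 did not. Lists: the number of BCL2 genes higher was 0 to 1 and of naive T cell genes higher 2 to 6 with 1 library left out. By limma 2 BCL2 genes were lower, and by limma, with the block and with the B cell covariate 4 naive T cell genes were higher. The block ended the calls of Ctnnb1 (adjusted p = 0.0598), Rptor (0.0743) and Foxp1 (0.0539, edgeR). The number of GSK3 and mTORC1 genes was 0 higher and 0 lower by limma with either pseudocount, with the block and with the B cell covariate, 0 higher with no filter, and 0 and 0 to 1 with 1 library left out. Over all genes 84 (without knockout replicate 3) to 480 (without knockout replicate 2) were higher and 517 to 1082 lower with 1 library left out, the ends being the same libraries. With 1 library left out the neighbours Lrrc61 (-0.19 to 0.18, and 0.13 without knockout replicate 2) and Rarres2 (-0.5 to 0.05) changed sign without passing. The causes were not tested. By counts in place of FPKM, Gimap6 made up 45.3% and 50.6% of the family in WT and knockout. Scaling moved the median of all genes by less than 0.1 in each fit.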
